A study of Danio rerio with 12 samples.

Results

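The gamma crystallin family was taken as all genes whose zebrafish symbol begins with crygm, crygn or crygs, which gave 41 of the 32520 genes counted. Whole AB zebrafish embryos at 1 dpf (days post fertilization) gave the messenger RNA of 12 libraries, 3 for each of 4 treatments. In TS + SM, embryos met thermal stress in medium that held stress metabolites. In TS, they met the same thermal stress in fresh medium. In SM, they lay at 27°C in the medium with stress metabolites, and in C, at 27°C in fresh medium. Thermal stress was a series of peaks of 32°C on a base of 27°C, and the stress metabolites came from medium in which other embryos had been heat-stressed on the day before. All embryos shared an exposure of 24 h in darkness, each in its own tube, and the RNA of 20 embryos was pooled for each library. The heated libraries below are the 6 of TS + SM and TS, and the unheated libraries are the 6 of SM and C.

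Gamma crystallins are small, soluble proteins that fill the elongated fiber cells of the vertebrate lens, where their dense packing gives the lens its refractive power. Together with the beta crystallins they form a superfamily built from Greek key folds. Fish carry a large group of methionine-rich gamma M-crystallins (the *crygm* genes), which are known for the hard, highly refractive lens of animals that see under water. Gamma N-crystallins are regarded as a branch between the beta and the gamma families, and gamma S-crystallins are the branch that land vertebrates kept in the lens cortex. At 1 dpf, the zebrafish lens is a small ball of cells in which the first fibers are forming, so in RNA of the whole embryo it is a minor tissue. In such bulk RNA, a lens with fewer fiber cells and a lens with less RNA per fiber cell cannot be told apart.

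Of the 41 genes, 36 were detected with at least 1 count in the 12 libraries. More than 3 counts in at least 1 library were reached by 27 genes, more than 3 counts in every library of at least 1 treatment by 20, and counts in each of the 12 libraries by 18. The filter on low counts of edgeR was passed by 16 genes. No count was found for *crygm1*, *crygm2a*, *crygm2b*, *crygm2f* and *crygm6*, and 8 further genes had between 1 and 3 counts in total, so for these 13 genes a transcript was not measurable at this depth, where a count of 0 allows up to 3 counts in a library. A heated library held counts of 23 to 32 members, and an unheated library counts of 21 to 25. After all libraries were thinned to the total of the smallest, a step chosen after seeing the data, these ranges were 22 to 27 and 20 to 25. Summed over the 6 libraries of each side, 36 members were detected in heated and 29 in unheated embryos. These sums were not thinned, and heated libraries held up to 60239167 counts, unheated ones up to 26430586. The 7 members with counts in heated libraries alone all failed the filter. No share over all genes was computed, so this is not read as a difference.

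The family is made of a long row of neighbours and a few genes that stand elsewhere. In a newer zebrafish reference annotation (GRCz12tu, used here only for the order of genes), 34 members follow each other between *crygm7* and *crygs3*, with 3 other coding genes among them. The 21 *crygm2d* genes stand without a break at positions 9 to 29 of this row. They took 5170 counts over the 12 libraries, and all 21 had counts. The 8 members before them had 24 counts in total and the 5 members after them had 59, of which *crygs4* gave 50. The row at 1 dpf was therefore read almost entirely from its *crygm2d* stretch. Outside the row, *crygmx* and *crygmxl2* are neighbours of each other, and *crygm4*, *crygn1*, *crygn2*, *crygs1* and *crygs2* of that annotation stand alone. The *CRYGN* and *CRYGS* identifiers of the count files could not be linked to the last 4 of these names, so their own positions are not given.

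**Figure D1:**
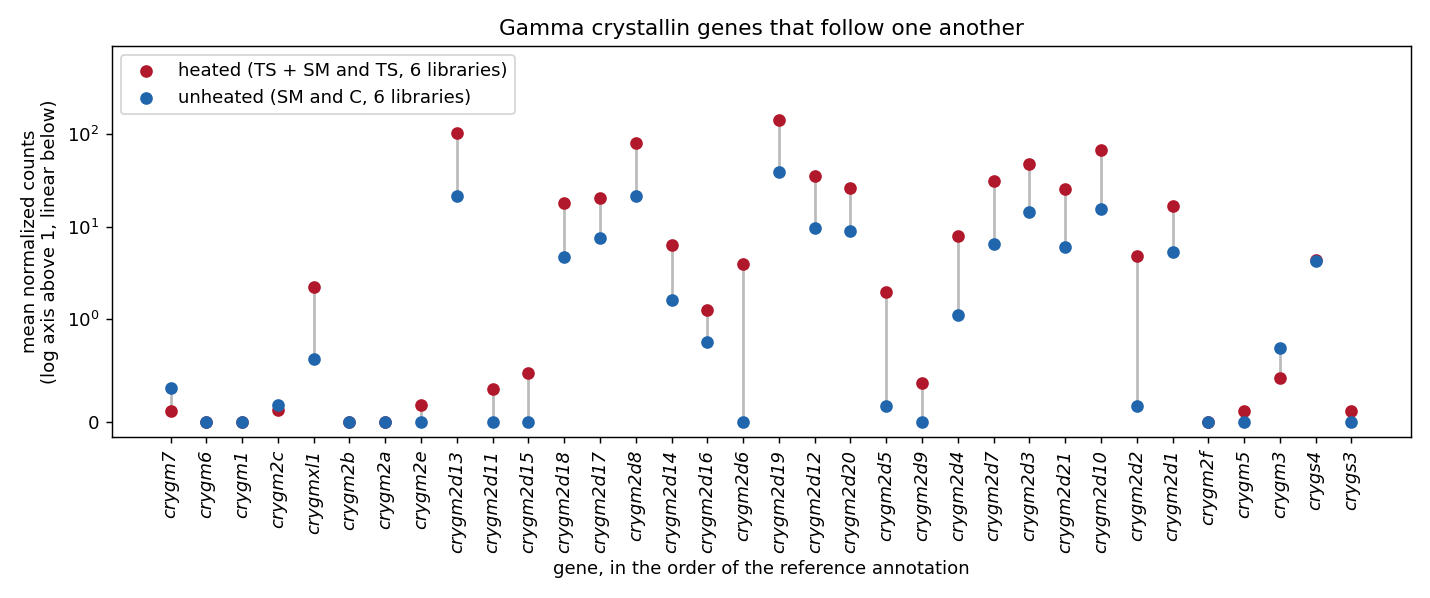
Mean normalized counts of the 34 gamma crystallin genes that follow each other in the reference, heated libraries (TS + SM and TS, n = 6, red) and unheated libraries (SM and C, n = 6, blue). The y axis is linear below 1 and logarithmic above; the gene order runs from *crygm7* to *crygs3*, and the levels above 10 all lie within the *crygm2d* stretch.

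The libraries held 18764434 to 60239167 counts (median 24659757.5), and the deepest was TS + SM replicate 1. Between 4.51% and 10.4% of read pairs matched more than 1 place in the genome and were not counted, so the value of a single member of this family of close paralogs is uncertain, since a read shared by copies is lost to all of them. Normalized counts, the scale of the values per library below, are raw counts brought to the mean effective library size by edgeR's TMM factors. With these depths, 3 counts, taken as the limit of detection of a library, equal 3.10 normalized counts on average in TS + SM, 2.99 in TS, 3.85 in SM and 2.92 in C. Values of different genes are not compared as expression levels below, because no transcript lengths of the build were used. Of the 6 lens fiber markers matched in the files none was without counts, although the alpha crystallin *CRYAA*, a defining lens marker, lay at 0.0455 to 0.404 CPM (counts scaled to a common effective library size) in heated and 0 to 0.165 CPM in unheated libraries.

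The 41 genes together made up 13126 counts in the 12 libraries. Their sum per library was 62.4, 52.5 and 58.3 CPM in TS + SM and 48.2, 40.3 and 69.8 CPM in TS. It was 18.9, 26.8 and 19.8 CPM in SM, against 14.5, 14.3 and 33.0 CPM in C. On this scale, each heated library lay above each unheated library, but by plain library totals TS replicate 2 (37.2 CPM) lay below C replicate 3 (38.8 CPM). C replicate 3 stood above the other unheated libraries as TS replicate 3 stood above the other heated ones. The counts were uneven among members: the *CRYGN* gene ENSDARG00000030411 took 36.6% of them, the 4 members with the highest mean (this gene, *crygmx*, *crygmxl2* and *crygm2d19*) 66.9%, and the 16 members tested 96.9%.

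**Figure D2:**
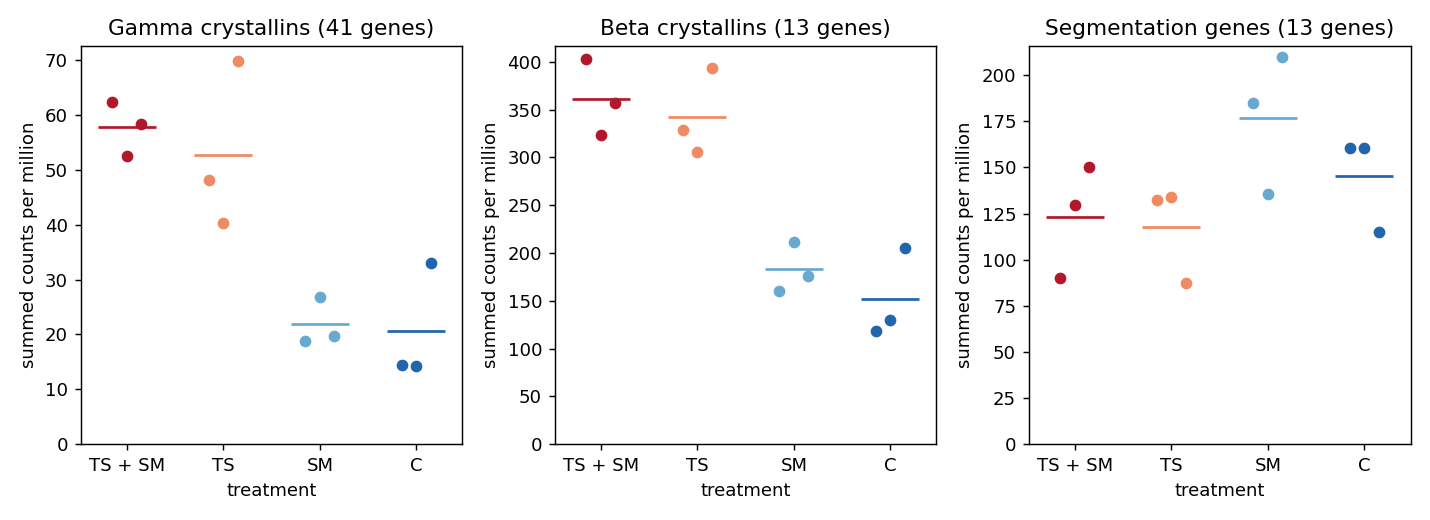
Summed CPM in each library for the 41 gamma crystallins, the 13 beta crystallins and 13 segmentation genes, by treatment (points, 3 libraries; bar, mean). Gamma crystallin sums are 40.3 to 69.8 in heated and 14.3 to 33.0 in unheated libraries, and the segmentation genes run from 87.5 to 150 in heated and from 115 to 209.7 in unheated libraries.

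Whether heat changed the family was asked with the quasi-likelihood test of edgeR, two-sided, in 18688 genes, and *P*-values were adjusted over all of these after Benjamini-Hochberg (*P*-adj). With the heat effect averaged over both media (TS + SM and TS against SM and C), 12 members were higher in heated embryos and none was lower, where 0.701% of all genes tested were higher. These were *crygm2d3*, *crygm2d7*, *crygm2d8*, *crygm2d10*, *crygm2d12*, *crygm2d13*, *crygm2d18*, *crygm2d19*, *crygm2d20*, *crygm2d21*, *crygmx* and *crygmxl2*. The log2 fold change (LFC) was positive for 15 of the 16 members tested, with a median of 1.77, beside -0.0027 over all genes. At an unadjusted *P* under 0.05, 15 members were higher, against 5.67% of all genes. In 12 of the 16 members tested, all 6 heated libraries lay above all 6 unheated libraries, which held for 1.47% of all genes. These were the 12 called, and the order rests on the same libraries as the calls.

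The filter on low counts bears on these numbers, which for that reason are not read as support. The 6 members *crygm2d1*, *crygm2d7*, *crygm2d17*, *crygm2d18*, *crygm2d20* and *crygm2d21* passed it only through heated libraries and so had to be higher there. Among the 9 members that reached the filter's level in at least 3 libraries of each side, LFC ran from 1.02 to 2.26 and 8 were called, where 0.706% of the 17009 genes of this kind were. In 8 of the 9, all heated libraries lay above all unheated ones, against 1.48% of these genes. These were the 8 called, and the order rests on the same libraries as the calls, so it adds no separate support. All 9 had a positive LFC, against 49% of the 17009 genes. Of all 36 members with counts, tested or not, 29 had the higher mean in heated and 7 in unheated libraries. No share over all genes was computed for this count, and it includes the members whose direction the filter set, so it is not read as support. The count of calls also depended on single libraries: it was 4 without SM replicate 1 or without C replicate 2, 5 without TS + SM replicate 2, 6 without SM replicate 3 or without C replicate 1, and 7 without TS replicate 1 or without SM replicate 2. The share of all genes called in such fits is not given, so these counts are not read as particular to the family. In each of these fits, 15 of the 16 members kept a positive LFC. The filter had set the direction of 6 of these 15, so this is not read as support. DESeq2 called 13 members higher, with 1.65% of all genes.

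**Figure D3:**
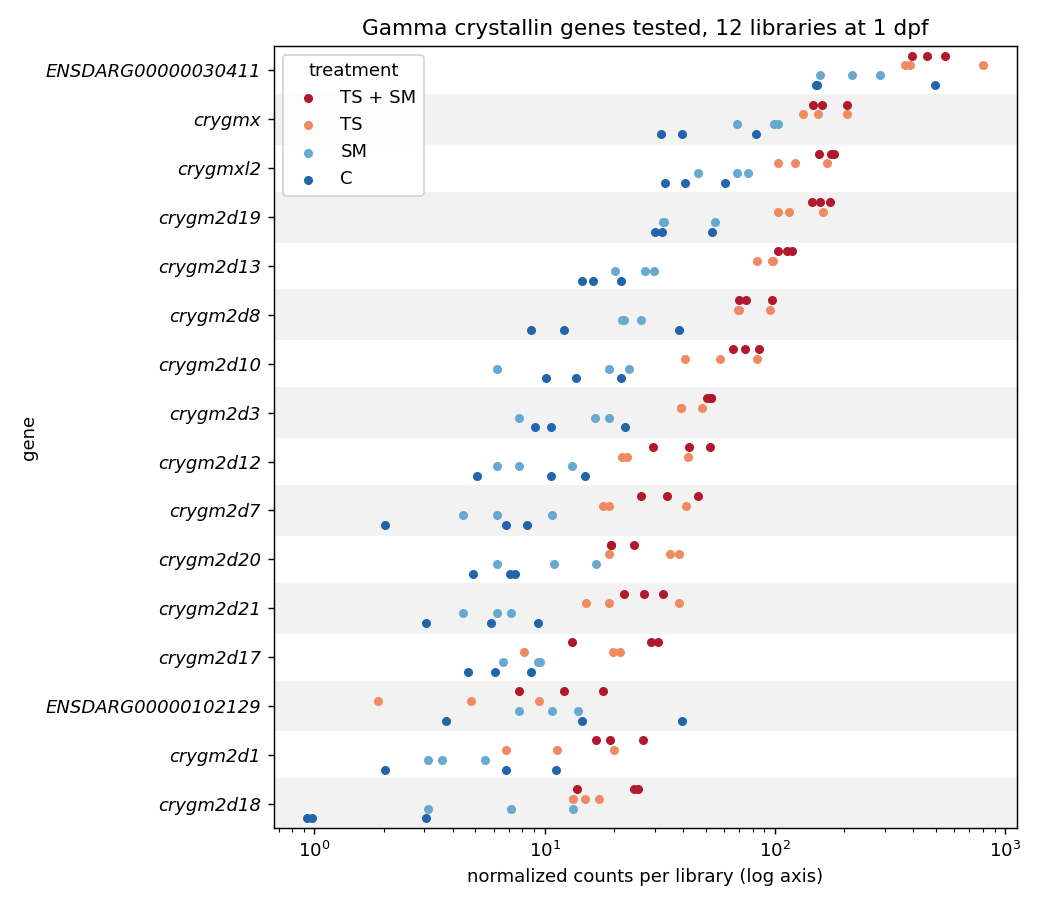
Normalized counts (log axis) of the 16 tested gamma crystallin genes in each library of TS + SM, TS, SM and C, ordered by mean count; each point is 1 library, 3 per treatment. For 12 of the genes the 6 heated libraries lie above the 6 unheated libraries, while the points of ENSDARG00000030411, ENSDARG00000102129, *crygm2d17* and *crygm2d1* overlap.

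The firmest member was *crygm2d13* (ENSDARG00000057460), a gamma M-crystallin gene that opens the *crygm2d* stretch. It had 119, 103 and 113 normalized counts in TS + SM and 98.5, 84.0 and 96.9 in TS, against 20.2, 27.4 and 29.8 in SM and 16.2, 14.6 and 21.4 in C. The lowest heated library stood far above the highest unheated library. Its LFC with heat was 2.26 (SE 0.19, edgeR with Benjamini-Hochberg adjustment, *P*-adj = 0.000261), and it stayed called when each of the 12 libraries was left out, with a *P*-adj of at most 0.00194. The treatment means were 112 ± 7.97 in TS + SM, 93.1 ± 7.98 in TS, 25.8 ± 4.99 in SM and 17.4 ± 3.59 in C (SD, n = 3 each).

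The gene ENSDARG00000109861 is named *crygm2d19* in the name table used here, whereas the gene list of the study gives it the symbol *crygm2d17*, which the name table gives to ENSDARG00000069817. It is the *crygm2d* gene with the most counts. It had 157, 173 and 144 normalized counts in TS + SM and 116, 103 and 161 in TS, against 32.6, 54.8 and 33.1 in SM and 32.4, 30.1 and 53.2 in C. Heated and unheated libraries were far apart, and SM and C overlapped. The LFC with heat was 1.84 (SE 0.22, edgeR, *P*-adj = 0.00214), called in each of the 12 fits that left out 1 library.

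Further *crygm2d* genes of middle count followed. *crygm2d8* had 74.8, 69.7 and 97.0 normalized counts in TS + SM and 70.11, 69.1 and 94.8 in TS, against 21.7, 26.2 and 22.1 in SM and 12.2, 8.75 and 38.2 in C. *crygm2d10* had 84.9, 65.8 and 73.9 in TS + SM and 57.8, 40.6 and 83.8 in TS, against 6.21, 19.0 and 23.2 in SM and 10.1, 13.6 and 21.4 in C. In both genes C replicate 3 was the highest library of its treatment, and the highest unheated library stayed under the lowest heated one. LFC with heat was 1.88 for *crygm2d8* (SE 0.33, edgeR, *P*-adj = 0.0218) and 2.096 for *crygm2d10* (SE 0.33, *P*-adj = 0.0113). With 1 library left out, *crygm2d8* stayed called in 8 of 12 fits and *crygm2d10* in 11.

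*crygm2d3* had 52.6, 52.9 and 50.9 normalized counts in TS + SM and 48.3, 39.3 and 39.2 in TS, against 7.76, 19.0 and 16.5 in SM and 9.12, 10.7 and 22.4 in C. *crygm2d12* had 52.0, 29.7 and 42.4 in TS + SM and 22.7, 21.7 and 41.9 in TS, against 6.21, 13.1 and 7.72 in SM and 5.07, 10.7 and 14.9 in C. The TS + SM libraries of *crygm2d3* were almost level, while those of *crygm2d12* lay further apart. LFC with heat was 1.70 for *crygm2d3* (SE 0.30, edgeR, *P*-adj = 0.0214, called in 7 of 12 fits with 1 library left out). It was 1.83 for *crygm2d12* (SE 0.35, *P*-adj = 0.0331, called in 4 of 12).

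The next *crygm2d* genes had few counts in unheated embryos. *crygm2d7* had 26.3, 46.4 and 33.9 normalized counts in TS + SM and 18.0, 19.0 and 41.2 in TS, against 6.21, 10.7 and 4.41 in SM and 2.03, 6.81 and 8.39 in C. *crygm2d21* had 22.1, 27.1 and 32.7 in TS + SM and 15.2, 19.0 and 38.5 in TS, against 6.21, 7.14 and 4.41 in SM and 3.04, 5.83 and 9.32 in C. In both, TS replicate 3 was the high library of its treatment and the unheated libraries held between 2 and 10 counts. LFC with heat was 2.23 for *crygm2d7* (SE 0.41, edgeR, *P*-adj = 0.0256, called in 8 of 12 fits with 1 library left out) and 2.08 for *crygm2d21* (SE 0.37, *P*-adj = 0.0234, called in 6 of 12). Both genes passed the filter only through heated libraries, so their direction and calls are not read as support.

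*crygm2d20* had 24.5, 19.4 and 19.4 normalized counts in TS + SM and 35.1, 19.0 and 38.5 in TS, against 6.21, 16.7 and 11.0 in SM and 7.09, 4.86 and 7.46 in C. Here SM replicate 2 came near the heated libraries, and the call was the weakest of the 12. The gene passed the filter only through heated libraries, so its direction and call are not read as support. Its LFC with heat was 1.56 (SE 0.32, edgeR, *P*-adj = 0.0497), and the call was lost in every fit with 1 library left out (*P*-adj 0.0552 to 0.184), without the filter on low counts, in the unstranded counts and with the replicate block (*P*-adj = 0.0587).

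*crygm2d18* (ENSDARG00000073750) had 23, 19 and 21 counts in TS + SM, 14, 11 and 25 in TS and 2, 6 and 12 in SM, against 3, 1 and 1 in C. No C library exceeded the limit of detection. In normalized counts these were 13.8, 24.5 and 25.5 in TS + SM, 13.3, 14.9 and 17.2 in TS and 3.10, 7.14 and 13.2 in SM, against 3.04, 0.972 and 0.932 in C. Set against 3 counts in each C library, its mean was 7.28-fold in TS + SM, 5.18-fold in TS and 2.68-fold in SM. These are ratios of means to the limit of detection, not lower limits of the change. The 95% interval of the LFC against C, not adjusted for the number of genes, began at 2.17 in TS + SM, 1.69 in TS and 0.73 in SM. Neither heated treatment was called against C under edgeR (*P*-adj = 0.0663 in TS + SM and 0.182 in TS). The SM libraries ran from the level of C to that of TS, and SM against C did not pass the test (edgeR, unadjusted *P* = 0.00692, *P*-adj = 0.989). With heat averaged over both media, it was called (*P*-adj = 0.0340), and the call held in 3 of 12 fits with 1 library left out. As *crygm2d18* passed the filter only through heated libraries, neither this call nor its LFC of TS + SM and TS against C is read as support.

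Both other tested *crygm2d* genes did not pass the test. They had passed the filter only through heated libraries, which fixes the direction of their LFC. *crygm2d17* ran from 8.13 to 31.0 normalized counts in heated and from 4.66 to 9.52 in unheated libraries, with an LFC of 1.42 (SE 0.37, edgeR, *P*-adj = 0.121). *crygm2d1* ran from 6.77 to 26.7 in heated and from 2.03 to 11.2 in unheated libraries, with an LFC of 1.62 (SE 0.44, *P*-adj = 0.142).

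*crygmx* (ENSDARG00000053862) and *crygmxl2* (ENSDARG00000074001) are gamma crystallins of the M group that neighbour each other away from the long row. *crygmx* had 205, 146 and 160.0 normalized counts in TS + SM and 206, 133 and 153 in TS, against 68.3, 103.5 and 99.2 in SM and 39.5, 32.1 and 82.99 in C. *crygmxl2* had 175, 155 and 181 in TS + SM and 122, 103 and 168 in TS, against 46.6, 76.2 and 68.4 in SM and 33.4, 40.8 and 60.6 in C. The unheated libraries of both genes spread over more than a doubling, with SM on the whole above C, and stayed below the heated libraries. LFC with heat was 1.29 for *crygmx* (SE 0.24, edgeR, *P*-adj = 0.0304, called in 3 of 12 fits with 1 library left out). It was 1.48 for *crygmxl2* (SE 0.20, *P*-adj = 0.00627, called in all 12). The third gene of this name, *crygmxl1*, which lies in the long row, was not tested and had 15 counts in heated and 3 in unheated libraries.

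Of the gamma N genes, neither was called. ENSDARG00000030411, the member with most counts, had 546, 395 and 457 normalized counts in TS + SM and 386, 367 and 801 in TS, against 216, 286 and 158 in SM and 151, 153 and 497 in C. Here 2 of the 6 heated libraries lay above C replicate 3, and TS replicate 3 was the highest of all. LFC with heat was 1.02 (SE 0.32, edgeR, *P*-adj = 0.240), and without C replicate 3 it passed the test (*P*-adj = 0.0183). The other gamma N gene, ENSDARG00000102129, had 30, 6 and 10 counts in TS + SM and 2, 7 and 7 in TS, against 9, 9 and 7 in SM and 39, 15 and 4 in C. It was the single tested member with a negative LFC with heat (-0.80, SE 0.55, *P*-adj = 0.803), and its C libraries alone ran from 3.73 to 39.5 normalized counts.

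The remaining 25 members were not tested. Over all libraries they held 293 counts in heated and 112 in unheated embryos. Some *crygm2d* genes among them had nearly all of their few counts in heated libraries. *crygm2d6* had 6, 5 and 5 counts in TS + SM and 3, 0 and 7 in TS, and none in SM and C. *crygm2d2* had 38 counts in heated and 1 in unheated libraries, of which 21 fell in the deepest library alone. *crygm2d4* had 52 and 6, *crygm2d14* 41 and 9, *crygm2d5* 15 and 1 and *crygm2d16* 7 and 4 counts in heated and unheated libraries. These are sums over pools of unequal depth and carry no test, and *crygm2d4* alone was called under DESeq2, which tests genes of lower count.

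Of the remaining members, the gamma S genes had few counts. *crygs4* had 29 counts in heated and 21 in unheated libraries, ENSDARG00000041171 (*CRYGS*) had 22 and 20, and ENSDARG00000042992 (*CRYGS*) had 12 and 16. *crygm4* had 20 and 24 counts and *crygm3* 3 and 4. No difference between heated and unheated libraries, or from the *crygm2d* genes, was tested at these counts. *crygm2d11* and *crygm2d15* had 3 counts each, *crygm2d9* 2, and *crygm2e*, *crygm5* and *crygs3* 1 each, all in heated libraries, while *crygm7* had 3 counts and *crygm2c* 2 on both sides together.

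Each medium was then taken on its own. In TS + SM against SM, 2 members were higher, *crygm2d13* (LFC 2.104, SE 0.27, edgeR, *P*-adj = 0.0163) and *crygm2d19* (LFC 1.97, SE 0.31, *P*-adj = 0.0436), beside 0.0856% of all genes. Over the 16 members the LFC ran from 0.26 to 2.302 with a median of 1.80. Among the 9 members that reached the filter's level on both sides, the 3 TS + SM libraries lay above the 3 SM libraries in 9, against 5.64% of such genes, and 9 were higher at an unadjusted *P* under 0.05, against 3.79%. With the members whose direction the filter set, these counts were 15 and 14, beside 5.67% and 3.71% of all genes. In TS against C, *crygm2d13* alone was higher (LFC 2.41, SE 0.27, *P*-adj = 0.00515), beside 0.0749% of all genes. Here the median LFC of the 16 was 1.69. Of the same 9 members, every TS library exceeded every C library in 8, against 5.91% of such genes, and 8 were higher at an unadjusted *P* under 0.05, against 3.15%. Over all 16 tested these counts were 12 and 13, beside 5.81% and 3.08% of all genes. In this comparison 1 member, ENSDARG00000102129, was lower at an unadjusted *P* under 0.05 (LFC -1.86, SE 0.79, edgeR, unadjusted *P* = 0.0365) and was not called. It reached the filter's level only on the unheated side. In TS + SM against SM, no member was left when any of 5 of the 6 libraries was left out, and *crygm2d13* alone without TS + SM replicate 3, whereas in TS against C *crygm2d13* was called each time. DESeq2 called 8 members higher in TS + SM against SM, where it called 0.544% of all genes higher, and 9 in TS against C, where it called 0.494%. With only the 6 libraries of the treatments compared, edgeR called none in either.

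In TS + SM against C, 3 members were higher, *crygm2d13* (LFC 2.67, SE 0.27, edgeR, *P*-adj = 0.00279), *crygm2d19* (LFC 2.03, SE 0.31, *P*-adj = 0.0225) and *crygmxl2* (LFC 1.91, SE 0.29, *P*-adj = 0.0225), beside 0.139% of all genes. This comparison shares its C libraries with TS against C, so both are affected alike by the high C replicate 3. Without that library, 5 members were called in TS + SM against C and 3 in TS against C. The share of all genes called without it is not given, so this rise is not read as particular to the family. The calls of *crygm2d19* and *crygmxl2* were lost without TS + SM replicate 1, TS + SM replicate 2, C replicate 1 or C replicate 2, each of which left 1 member called. DESeq2 called 11 members higher here, with 0.821% of all genes.

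**Figure D4:**
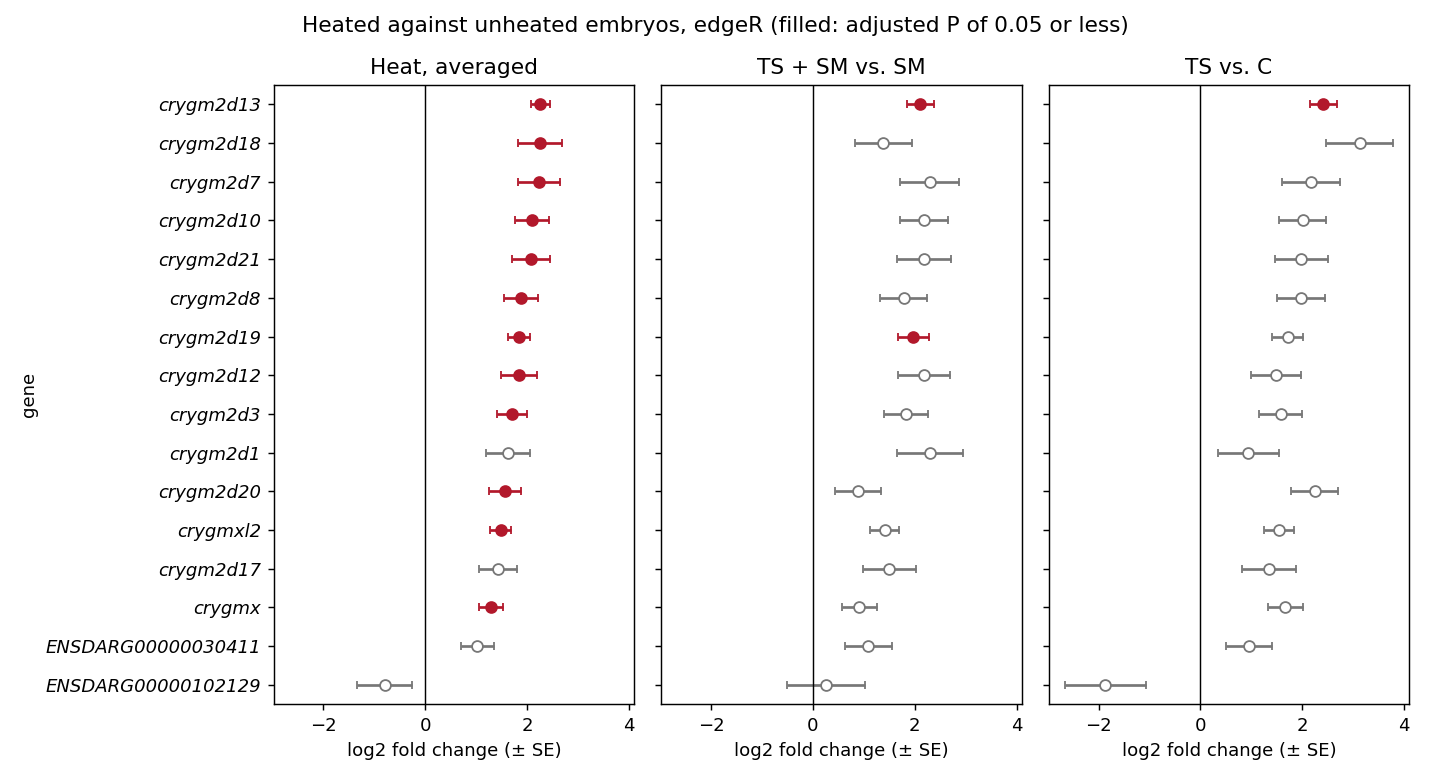
LFC ± SE of the 16 tested members for heat averaged over both media, for TS + SM vs. SM and for TS vs. C (edgeR; filled points have a *P*-adj of 0.05 or less), ordered by the averaged LFC. Points lie right of 0 for 15 of 16 members in the averaged effect, 12 of them filled; the LFC of *crygm2d18* against C is fitted against libraries at the limit of detection.

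Stress metabolites alone were compared next. In SM against C no member was called (0% of all genes, and 0 members under DESeq2). At an unadjusted *P* under 0.05, *crygm2d18* and *crygmx* were higher in SM, 2 members against 2.12% of all genes. The LFC of the 16 members had a median of 0.18, and 11 were positive. For *crygm2d13* it was 0.57 with a 95% interval from -0.02 to 1.16, for *crygmx* 0.81 (0.05 to 1.57), for *crygm2d19* 0.06 (-0.62 to 0.74) and for ENSDARG00000030411 -0.28 (-1.28 to 0.72). With intervals of this width, a modest change with SM was not detectable.

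Stress metabolites on top of heat and the interaction gave no call either. In TS + SM against TS, 0 members were called under edgeR and DESeq2 (0% of all genes), and 0 had an unadjusted *P* under 0.05, against 1.45% of all genes. The median LFC was 0.31, and 14 of 16 were positive. For *crygm2d13* the LFC was 0.26 with a 95% interval from -0.28 to 0.80, and for *crygmxl2* 0.37 (-0.23 to 0.98). In the interaction of heat and SM, which asks whether the heat effect differed between media, 0 members were called under edgeR and DESeq2 (0% of all genes) and 0 passed an unadjusted *P* of 0.05, against 0.915%. The largest interaction terms in size were those of ENSDARG00000102129 (2.13, SE 1.097), *crygm2d18* (-1.74, SE 0.85), *crygm2d1* (1.36, SE 0.88) and *crygm2d20* (-1.36, SE 0.64), each from few counts.

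The make-up of the family's counts was read in each library. The 21 *crygm2d* genes gave 41.6%, 48.5% and 47.1% of the gamma crystallin counts in TS + SM and 43.1%, 42.3% and 38.9% in TS, against 25.9%, 31.2% and 34.2% in SM and 28.5%, 32.6% and 24.9% in C. All heated libraries lay above all unheated ones in this share. The *CRYGN* genes gave 28.8% to 43.3% in heated and 31.3% to 57.0% in unheated libraries, with C replicate 3 the highest. The *crygmx* genes gave 17.3% to 25.7% in heated and 16.5% to 31.7% in unheated libraries, and these ranges overlap. The other 15 members gave 0.517% to 1.40% in heated and 1.59% to 5.25% in unheated libraries. Shares of 1 sum are tied to each other, and no test was made of them.

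**Figure D5:**
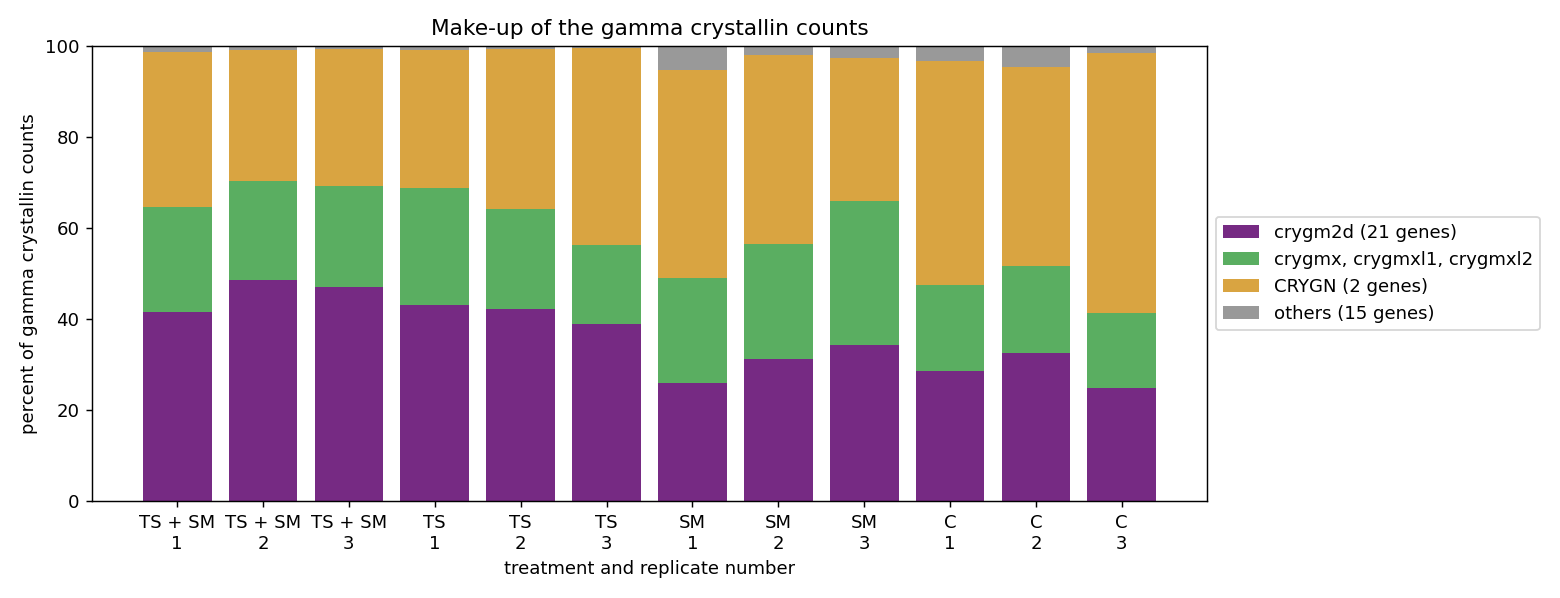
Percent of each library's gamma crystallin counts that fell to the *crygm2d* genes, the *crygmx* genes, the *CRYGN* genes and the other members, for the 12 libraries of TS + SM, TS, SM and C. The *crygm2d* share is 38.9% to 48.5% in heated and 24.9% to 34.2% in unheated libraries.

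Other lens genes were read beside the family. The beta crystallins, lens proteins of the same superfamily, were matched to 13 genes, of which 11 were tested. With heat averaged over both media, 6 were higher, beside 0.701% of all genes, and the median LFC of the 11 was 0.96. The 6 were *cryba1b* (LFC 1.11, SE 0.10, edgeR, *P*-adj = 0.000338), *cryba1l1* (0.96), *crybb1l1* (1.34), *crybb1l2* (1.27) and both *CRYBA2* genes (1.04 and 0.89). Of the 11, 10 had a positive LFC, while *CRYBB3* lay below 0 (LFC -0.54, *P*-adj = 0.614). The sum of the 13 beta crystallins ran from 306 to 402 CPM in heated and from 119 to 212 CPM in unheated libraries. The gamma crystallin counts came to 13.2% to 17.8% of the beta crystallin counts in heated and 11.0% to 16.1% in unheated libraries, where C replicate 3 held the 16.1% and the other unheated libraries at most 12.6%. Whether the gamma and the beta crystallins differ in their response was not tested. Of 13 tested genes on a list of lens regulators and non-crystallin lens genes none was called. Of these, 3 had an unadjusted *P* under 0.05, among them *lim2.3*, a membrane protein gene of lens fibers (LFC 1.15, *P*-adj = 0.0534), and *GRIFIN*, a galectin-related lens gene (LFC 1.39, *P*-adj = 0.0977). The regulators *foxe3* (LFC -0.15) and *pitx3* (LFC 0.13) stayed within their SE. So did the non-crystallin lens genes *BFSP2* (LFC 0.10), *GJA3* (LFC 0.21) and *lim2.2* (LFC -0.20). Of the 13 genes, 9 had a positive LFC.

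Markers of other tissues and of stage were read in the same fit. Of 13 segmentation genes, which are expressed while somites form and fade as segmentation ends, 8 were lower in heated embryos, beside 0.15% of all genes, and the median LFC was -2.08. For instance, *her1* had an LFC of -2.36 and *mespab* of -3.89. The sum of the list ran from 87.5 to 150 CPM in heated and from 115 to 209.7 CPM in unheated libraries. Most of it came from *dlc* (mean normalized counts 1910 heated, 2032 unheated, LFC -0.08) and *tbxta* (791 and 758, LFC 0.06), which were not called. By contrast, *her1* had 19.6 and 97.0 and *mespab* 2.72 and 42.3, so the sum says little about the genes called. The lowest unheated sum belonged to C replicate 3 and the lowest heated sum to TS replicate 3, the libraries with the highest gamma crystallin sum of their side. At the other end there was no such match. The highest sums, in SM replicate 3 and TS + SM replicate 3, did not fall in the libraries with the lowest gamma crystallin sum of their side. Whether the called segmentation genes follow the gamma crystallin sums over the libraries was not tested. The paper reports that embryos under thermal stress were further developed than controls at the age sampled here. It also states that, lacking stage-matched controls, it cannot yet say if TS acts through heat stress or through faster development. The staging was made on imaged embryos, and no stage is given for the pools sequenced here. These libraries have no stage-matched controls either. The part of developmental stage in the result was therefore not tested, and it cannot be told apart from heat. Of 8 retina and optic cup markers tested, 1 was higher with heat, the pigment gene *pmela* (LFC 0.66), and the list's sum was 162 to 242 CPM in heated and 135 to 209 CPM in unheated libraries. Of 6 epidermal markers and 7 general markers of muscle, blood, neurons and hatching gland none was called, 0 and 1 being higher and 2 and 0 lower at an unadjusted *P* under 0.05. Of 13 heat shock genes tested, the chaperone gene *hsp70.3* alone was higher (LFC 1.56, *P*-adj = 0.000298), and their median LFC was 0.06. Some genes of the heat shock list could not be matched by symbol. The genes *hsp90aa1.2*, *hspa8b* and *hsc70*, which the paper reports as raised by heat, were not among those tested. These values therefore do not measure the whole heat shock response.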

How the data were processed

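RNA-seq counts of 12 libraries, 3 each of TS + SM, TS, SM and C, were used, with treatments taken from the sample labels. Per the labels and methods, the authors trimmed read pairs with fastp 0.23.1 without removing duplicates, aligned them to GRCz11 with STAR 2.6.1, and deposited unnormalized counts per gene. The stranded column (opposite strand 2.61% to 3.45%) was taken, and its summary lines were left out. Symbols came from a table of 29201 identifiers. The members and lists were chosen with earlier results of these data known.

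The model was fitted in R 4.3.3 by edgeR 4.0.16 (TMM, filterByExpr by group, robust quasi-likelihood F test, 1 model of 12 libraries, treatment as factor), with Benjamini-Hochberg adjustment over 18688 genes and a threshold of 0.05. It was also run on simulated data in which only genes with a mean above 1 CPM were changed. Members of fewer counts were not covered by that run. SE was taken as the size of the LFC over the root of its F statistic, and intervals use the fit's degrees of freedom. With 3 pools against 3, an exact permutation test cannot go below 0.10, and with 6 against 6 it cannot go below 0.00216. No permutation test was run. Precision is set by the pools, and the depth limits genes of few counts.

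Named were all members that passed the filter, per library where called, for *crygm2d13*, *crygm2d18* and the 4 with most counts. Members that failed it are given by their counts.

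Alternatives were DESeq2 1.42.0 (Cook's filter off), its size factors, no filter, the replicate number as a block, unstranded counts, the 6 libraries compared, and each library left out. Thinning, other scalings of the family sum and leaving out the libraries numbered 3 were chosen after seeing the data. The main fit used no pairing, and the replicate block was applied to all 12 libraries. Each correlation of same-numbered libraries exceeded 0.1 for TS with C (r 0.294 to 0.786) and TS + SM with C (0.106 to 0.619). This did not hold for the other pairs of treatments, such as SM with C (-0.304 to 0.322). Promoter and protein sequences were not analysed here.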

Additional observations from a re-analysis of the deposited data

How the results depend on the processing

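Depth and 3 pools per treatment limit what can be said of single members. With heat averaged over both media, 15 of the 16 tested members kept a positive LFC under all 19 alternatives, with a median of 1.65 to 1.98, but the number called moved. The filter on low counts set the direction of 6 of these 15. The 1 member below 0 reached the filter's level only on the unheated side, so the steady direction and median are not read as support. With 1 library left out it ran from 4 to 11, and 3 of the 12 members (*crygm2d13*, *crygm2d19* and *crygmxl2*) were called in every such fit. It was 13 under DESeq2 (1.65% of all genes higher), and 9 both after thinning and without the 4 libraries numbered 3, where ENSDARG00000030411 passed the test. DESeq2 called 9 members in TS vs. C, 11 in TS + SM vs. C and 8 in TS + SM vs. SM, against 1, 3 and 2 under edgeR, where its shares of all genes called higher were 0.494%, 0.821% and 0.544%. With only the 6 libraries compared, edgeR called 0 in each of these. Without the 4 libraries numbered 3 it called 2 in TS vs. C, 6 in TS + SM vs. C and 0 in TS + SM vs. SM. In TS vs. C, all genes called in either direction rose from 18 to 36 in the same step. With 1 library left out, calls ran from 1 to 3 in TS vs. C, from 1 to 5 in TS + SM vs. C and from 0 to 1 in TS + SM vs. SM, where a treatment left with fewer pools takes its spread from all treatments. For the fits with libraries left out or thinned, the share of all genes called is not given. Their counts are therefore not read as a result about the members. The cause of these moves was not tested. With the replicate block, 1 member was called in TS vs. C, 3 in TS + SM vs. C, 2 in TS + SM vs. SM and 11 with heat averaged, where *crygm2d20* was lost. The block changed no other call. In SM vs. C, TS + SM vs. TS and the interaction no member was called under any alternative. The direction of ENSDARG00000102129 reversed in TS + SM vs. C without C replicate 1 (LFC 0.51, edgeR, *P*-adj = 0.883) and in TS + SM vs. SM without TS + SM replicate 1 (LFC -0.11, *P*-adj = 0.982). With 1 library left out, its *P*-adj ran from 0.815 to 1 in the first and from 0.941 to 1 in the second. Detection depended on the rule: 36 members had any count, 20 had more than 3 counts in every library of a treatment, 16 passed the filter, and 32 had counts after thinning. The lowest heated library held 1.22 times the family sum of the highest unheated one, and 0.958 times by plain library totals, where 10 members, in place of 12, had all heated above all unheated libraries.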
